A study of Homo sapiens with 14 samples.

Results

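The miRNAs described here are the mature strands of the paralogous clusters miR-106b-25 and miR-106a-363, chosen by name. They are hsa-miR-106b-5p, hsa-miR-93-5p and hsa-miR-25-3p from the first cluster and hsa-miR-106a-5p, hsa-miR-18b-5p, hsa-miR-20b-5p and hsa-miR-363-3p from the second. All 7 were found among the 2848 entries of the deposited table of mature miRNA counts. The study asked how proanthocyanidins from grape, polyphenols built of linked flavanol units and called PA here, change miRNA levels in PANC-1, an established human cell line derived from a pancreatic ductal carcinoma. Cells in serum-containing medium were exposed to PA at 20 µg/ml for 3, 12 or 24 h, or to the vehicle DMSO for 0, 3, 12 or 24 h. Each of these 7 groups had 2 small RNA libraries, lettered A and B, 14 in all. The design text mentioned a biological replicate, but no label stated that A and B were separate cultures, so p-values measure the spread between these libraries, which may be in part technical. All groups were the same cell line, and none of the 14 libraries was PA at 0 h.

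A miRNA pairs with its targets mainly through its seed, bases 2 to 8 from the 5′ end, so miRNAs that share a seed share many predicted targets. miR-17-92, miR-106b-25 and miR-106a-363 arose by duplication of an ancestral cluster. miR-106b-25 lies within MCM7, which encodes a subunit of the replicative DNA helicase and is driven by E2F factors, so that its miRNAs are usually made in dividing cells. In gastric cancer cells miR-106b and miR-93 were described to repress the cyclin-dependent kinase inhibitor CDKN1A, and miR-25 to repress the pro-apoptotic BCL2L11 (BIM). miR-106a-363 is known as a site of retroviral insertion in mouse T-cell leukaemia and is little used in most adult tissues.

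The sequences below show which of these miRNAs share a seed and how close each one is to its miR-17-92 relative. They are the RefSeq mature sequences on GRCh38.p14, found for 7 of 7 members, written 5′ to 3′ with the seed in capitals. The seed AAAGUGC was held by 4 members and by miR-17-5p and miR-20a-5p.
hsa-miR-106b-5p: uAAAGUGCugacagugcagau
hsa-miR-93-5p: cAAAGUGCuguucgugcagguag
hsa-miR-106a-5p: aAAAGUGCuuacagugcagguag
hsa-miR-20b-5p: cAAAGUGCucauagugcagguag
hsa-miR-17-5p: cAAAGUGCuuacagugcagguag
hsa-miR-20a-5p: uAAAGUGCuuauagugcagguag
The seed AUUGCAC was held by miR-25-3p and miR-363-3p and by miR-92a-3p.
hsa-miR-25-3p: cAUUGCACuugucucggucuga
hsa-miR-363-3p: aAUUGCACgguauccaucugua
hsa-miR-92a-3p: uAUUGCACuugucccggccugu
The seed AAGGUGC was held by miR-18b-5p and its relative miR-18a-5p.
hsa-miR-18b-5p: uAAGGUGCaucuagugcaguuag
hsa-miR-18a-5p: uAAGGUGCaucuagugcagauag

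Differences are given from the miR-17-92 base to the paralog's base, with positions counted from 1 at the 5′ end. miR-106a-5p differed from miR-17-5p only by C1A, with 22 of 23 bases identical, and the change lies before the seed. miR-18b-5p differed from miR-18a-5p only by A20U. miR-20b-5p differed from miR-20a-5p by U1C and U10C, and from miR-17-5p by U10C and C12U. Of the chromosome 7 strands, miR-93-5p differed from miR-17-5p at 4 positions (U10G, A11U, C12U and A13C). From miR-92a-3p, miR-25-3p differed at 4 (U1C, C14U, C18U and U22A). miR-363-3p shared its seed with miR-25-3p but differed from it at 13 of 22 positions. Where the authors' counting allowed 1 mismatch, reads of miR-17-5p could count as miR-106a-5p and those of miR-18a-5p as miR-18b-5p. With 2 mismatches, reads of miR-20a-5p or miR-17-5p could count as miR-20b-5p, and those of miR-20a-5p also as miR-106a-5p. The values of these 3 X-linked miRNAs are uncertain for that reason.

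On GRCh38, MIR106B, MIR93 and MIR25 lie within 515 bp on the minus strand of chromosome 7 (chr7:100093560-100094074). They are intronic in 8 of 8 GENCODE release 29 transcripts of MCM7 that span them. The 6 hairpins of miR-106a-363 lie within 901 bp on the minus strand of the X chromosome (chrX:134169378-134170278) and overlap an exon of the single annotated transcript of AC002407.1. Of these 6, MIR19B2 and MIR92A2 give mature strands identical to those of miR-17-92, so miR-19b-3p and miR-92a-3p cannot be assigned to the X cluster and are not among the 7.

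The libraries held 1032391 to 3111014 counted reads. Levels are in CPM, counts scaled to one common library size with edgeR's TMM factors, with no correction for length, which is 21 to 23 nt for all 7. As a check of the cell label, miR-21-5p, abundant in carcinoma cells, was at 142163 to 239598 CPM and miR-196a-5p at 1393 to 2256 CPM, while the epithelial miR-200c-3p and miR-141-3p were near 0 (at most 13.4 and 18.3 CPM). Lists of 4 haematopoietic and 3 acinar and islet miRNAs summed to at most 6.37 and 10.0 CPM. Red blood cell miRNAs summed to 296 to 591 CPM, nearly all of it miR-486-5p, with miR-451a at 0 in 10 of 14 libraries. Fibroblast and endothelial miRNAs summed to 394 to 858 CPM, mostly miR-126-3p.

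The 2 clusters were used very unequally. miR-93-5p ranked 37th of 2848 entries by total count, with 105755 reads and 2586 to 5084 CPM. miR-25-3p ranked 64th, with 44335 reads and 1234 to 1802 CPM, and miR-106b-5p ranked 65th, with 38464 reads and 732 to 1797 CPM. The trio summed to 0.489 to 0.855% of all counted reads of a library.
From the X cluster, miR-106a-5p was the only member with more than 21 reads in a library, with 1543 reads over 14 libraries, rank 291 and 28.6 to 76.2 CPM. miR-363-3p had 101 reads in all, between 0 and 21 in a library. miR-20b-5p had 65 reads in all, between 0 and 9 in a library. These counts leave the X cluster far below the trio: the trio's reads were 77.7 to 155 times the sum of the 4 X-linked members in the same library. miR-18b-5p had 42 reads in all, between 0 and 9 in a library, and was at 0 in 2 libraries, as was miR-363-3p, while miR-20b-5p was at 0 in 1. A count of 0 allows up to 3 reads, which covers counting error only. The other arms of the X-cluster hairpins, including those of MIR19B2 and MIR92A2, had between 1 and 4 reads each over all 14 libraries. Without miR-106a-5p, the X-linked members held 5 to 31 reads in a library.

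**Figure D1:**
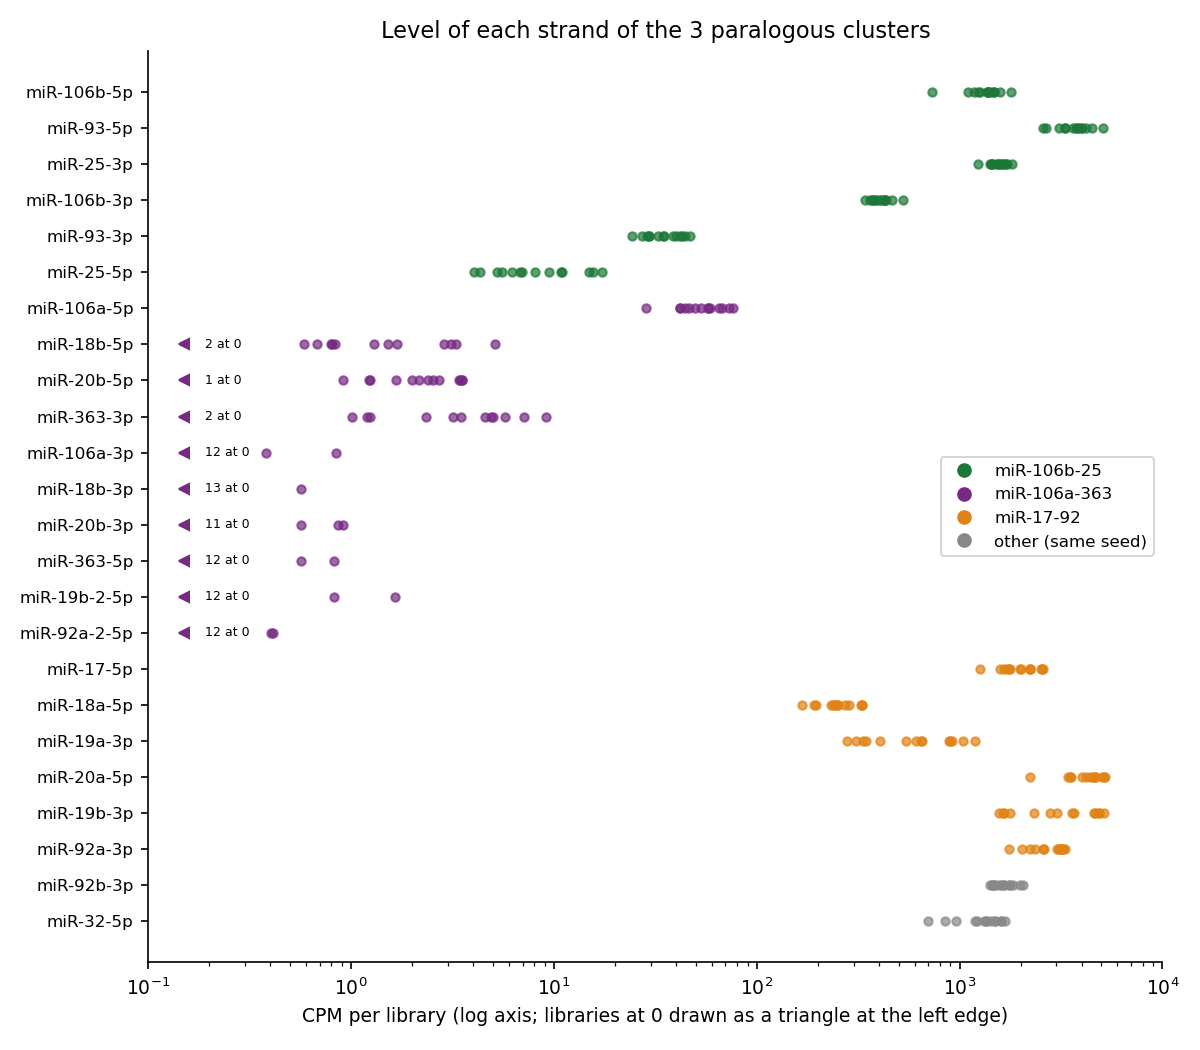
CPM on a log axis, 1 point per library (14 per row), for each strand of the 3 paralogous clusters and for 2 miRNAs with the seed AUUGCAC; triangles mark libraries at 0. The miR-106b-25 guide strands sit at 732 to 5084 CPM, miR-106a-5p at 28.6 to 76.2 CPM and the remaining X-linked strands at no more than 9.09 CPM.

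Within the trio the order was not the same in every library. miR-93-5p was above both others in 14 of 14 libraries, at 1.63 to 5.45 reads per miR-106b-5p read and 1.82 to 2.82 per miR-25-3p read. miR-25-3p and miR-106b-5p overlapped in range: miR-25-3p had 0.915 and 0.900 reads per miR-106b-5p read in the DMSO 0 h libraries and more than 1 in the other 12. The minor arms were lower than their partners in every library. miR-93-3p had 0.667 to 1.72% of the reads of miR-93-5p, and miR-25-5p had 0.241 to 1.11% of those of miR-25-3p.

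Relatives with the same seed put these levels in proportion. Seed families were built from the 2059 entries matched to a RefSeq mature sequence, so unmatched entries with the same seed are left out. Over the 8 entries with the seed AAAGUGC the summed level was 7368 to 14191 CPM. The trio's 2 members, miR-106b-5p and miR-93-5p, made up 41.5 to 52.2% of it and the X-linked members 0.366 to 0.702%. Over the 6 entries with the seed AUUGCAC, miR-25-3p made up 19.9 to 22.6% and miR-363-3p at most 0.122%. For the seed AAGGUGC, miR-18b-5p made up at most 2.17%.

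Of the PA comparisons, the one at 24 h was where members passed the test. miR-93-5p and miR-106a-5p fell, and the other tested members, miR-25-3p, miR-106b-5p and miR-363-3p, did not pass. miR-93-5p had 3310.5 and 2673 CPM in the PA libraries, against 4512 and 5084 CPM in the DMSO libraries. Both PA libraries lay below both DMSO libraries. Its mean was 2992 ± 451 CPM in PA and 4798 ± 405 CPM in DMSO (SD, n = 2 each). The edgeR log2 fold change was -0.68 ± 0.19 (SE, 95% interval -1.08 to -0.29, adjusted p = 0.0351, quasi-likelihood test). miR-106a-5p had 41.7 and 28.6 CPM in the PA libraries (104 and 34 reads), against 73.0 and 67.2 CPM in the DMSO libraries (178 and 155 reads). The groups did not overlap here either. Its log2 fold change was -0.97 ± 0.26 (SE, 95% interval -1.52 to -0.42, adjusted p = 0.0339, edgeR).

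miR-25-3p, the strand described to repress BIM, had 1419 and 1234 CPM in PA, against 1692 and 1802 CPM in DMSO. Its log2 fold change of -0.40 ± 0.15 (SE) had an adjusted p of 0.138 in edgeR. miR-106b-5p had 1257 and 1176 CPM in PA, against 1479 and 1375 CPM in DMSO. The groups were apart for both, but the difference for miR-106b-5p was -0.23 ± 0.18 on the log2 scale (95% interval -0.61 to 0.15, adjusted p = 0.515, edgeR). The difference between these 2 neighbours of the same intron, miR-93-5p and miR-106b-5p, was not tested itself. miR-363-3p had 3 and 0 reads in PA, against 12 and 8 reads in DMSO (adjusted p = 0.338, edgeR), and no fold is given at these counts. miR-18b-5p had 2 and 2 reads in PA, against 7 and 3 in DMSO. miR-20b-5p had 5 and 3 reads in PA, against 3 and 5 in DMSO. Neither of these last 2 passed the filter on low counts, so neither was tested with the rest.

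By count, 2 of the 5 tested members fell and 0 rose, where 6.67% of the 810 tested entries passed in either direction, 2.35% with a fall and 4.32% with a rise. All 5 had both PA libraries below both DMSO libraries, as did 26.5% of tested entries. The members' median log2 fold change was -0.68, against -0.01 over all entries tested. In bulk libraries, fewer cells of a type and less RNA per cell cannot be told apart.

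Both calls depended on which libraries were in the fit. Without 1 library at a time, miR-93-5p lay between -0.83 and -0.51 on the log2 scale. Leaving out a DMSO 24 h library gave it an adjusted p in edgeR of 0.122 (A) or 0.311 (B), a DMSO 3 h library 0.0740 (A) or 0.0911 (B), a PA 3 h library 0.0591 (A) or 0.0611 (B), a PA 12 h library 0.0659 (A) or 0.0552 (B), and library B of PA 24 h 0.291, none of which passed. The other 5 fits kept the call. miR-106a-5p lay between -1.27 and -0.72. Its adjusted p in edgeR was 0.219 (A) or 0.132 (B) with a DMSO 24 h library left out, 0.0600 (A) or 0.0601 (B) with one of DMSO 0 h, 0.0563 (A) or 0.0697 (B) with one of DMSO 3 h, 0.0541 (A) or 0.0519 (B) with one of PA 3 h, 0.0621 with library A of PA 12 h and 0.262 with library B of PA 24 h, and the other 4 fits kept the call. Direction was the same in all 14 of these fits for both miRNAs. With the average of DMSO at 0, 3 and 12 h in place of DMSO at 24 h, the value of miR-93-5p was -0.30 (adjusted p = 0.259, edgeR) and that of miR-106a-5p -0.74 (adjusted p = 0.0512, edgeR).

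The scaling moved calls on both sides of the threshold. With DESeq2 size factors in the same edgeR fit, miR-93-5p stood at -0.64 and did not pass (adjusted p = 0.0523), while miR-106a-5p passed at -0.93 (adjusted p = 0.0422). With total counts in place of TMM factors, the median over all entries at 24 h was -0.19, and 38.7% of called entries were higher in PA, against 64.8% with TMM. miR-25-3p then stood at -0.58 (adjusted p = 0.0149, edgeR). The TMM factors were 0.886 and 0.962 in the PA 24 h libraries and 1.06 and 1.03 in the DMSO 24 h libraries. Other cell-type lists beside this result were as follows: red blood cell miRNAs summed to 503 to 554 CPM in PA and 380.0 to 397 CPM in DMSO, haematopoietic miRNAs to 1.68 to 3.21 CPM in PA and 1.64 to 1.73 CPM in DMSO, and fibroblast and endothelial miRNAs to 592 to 653 CPM in PA and 680.1 to 688 CPM in DMSO. The part of these differences in the result was not tested.

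**Figure D2:**
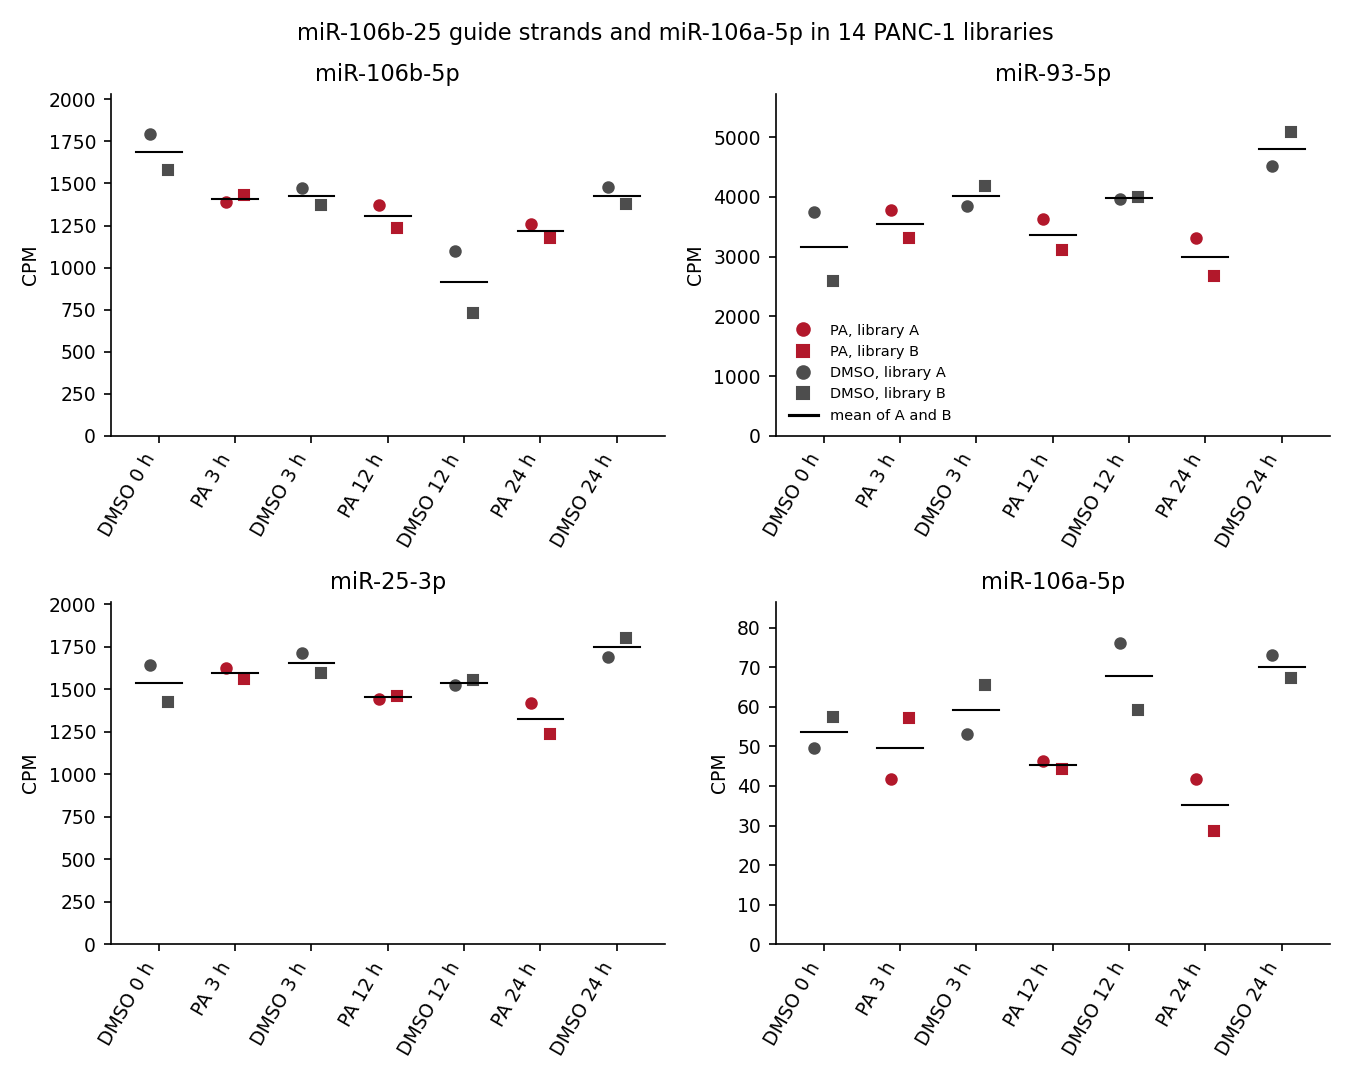
CPM of miR-106b-5p, miR-93-5p, miR-25-3p and miR-106a-5p by group in time order, PA in red and DMSO in grey, library A as circles and B as squares, with a line at the mean of the 2. At 24 h the PA points of miR-93-5p (3310.5 and 2673) lie below the DMSO points (4512 and 5084), and at 12 h the DMSO points of miR-106b-5p (1098 and 732) are the lowest of all 14.

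At 12 h none of the 5 tested members passed, where 11.1% of tested entries did (2 members had an unadjusted p under 0.05 in edgeR, and none passed by DESeq2). Over all entries 90 of 810 were called, 94 by DESeq2 and 99 by limma on log2(TPM + 1). With only the groups compared 33 of 648 were called, and with the average of DMSO at 0, 3 and 24 h as the control 5 of 810. miR-106b-5p had 1375 and 1237 CPM in PA, against 1098 and 732 CPM in DMSO. Its log2 fold change was 0.51 ± 0.18 (SE, adjusted p = 0.0802, edgeR), the only positive one of the 5. The DMSO 12 h libraries themselves were far apart for this miRNA: without DMSO 12 h A the value was 0.84 (adjusted p = 0.00491, edgeR), without DMSO 12 h B it was 0.26 (adjusted p = 0.456, edgeR), and with the average of DMSO at 0, 3 and 24 h as the control it was -0.21 (adjusted p = 0.569, edgeR). miR-106a-5p had 46.4 and 44.2 CPM in PA, against 76.2 and 59.1 CPM in DMSO, a log2 fold change of -0.59 ± 0.26 (SE, adjusted p = 0.161, edgeR) with no overlap. miR-93-5p (3629 and 3106 CPM in PA, 3962 and 3992 CPM in DMSO) gave -0.24 ± 0.18 on the log2 scale. miR-25-3p (1441 and 1462 CPM in PA, 1526 and 1551 CPM in DMSO) gave -0.08 ± 0.15. Both of these 95% intervals included 0. miR-363-3p had 2 and 8 reads in PA, against 0 and 10 in DMSO. Of the 5, miR-93-5p, miR-25-3p and miR-106a-5p were lower in PA without overlap, as were 26.8% of tested entries, and miR-106b-5p was higher without overlap, as were 25.3%.

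At 3 h none of the 5 tested members passed by edgeR or DESeq2, where 0.247% of tested entries did by edgeR, and 0 members had an unadjusted p under 0.05. miR-106b-5p had 1387 and 1430 CPM in PA, against 1475 and 1371 CPM in DMSO, and miR-25-3p had 1628 and 1563 CPM in PA, against 1715 and 1598 CPM in DMSO. The 2 groups overlapped for both. miR-93-5p had 3784 and 3306 CPM in PA, against 3845 and 4179 CPM in DMSO (log2 fold change -0.18 ± 0.18, SE). miR-106a-5p had 41.8 and 57.2 CPM in PA, against 53.1 and 65.5 CPM in DMSO (log2 fold change -0.25 ± 0.25, SE). Every 95% interval at 3 h included 0. miR-363-3p had 12 and 21 reads in PA (5.01 and 7.11 CPM), against 12 and 4 in DMSO (4.58 and 2.34 CPM). miR-93-5p was lower in PA without overlap, as were 16% of tested entries, and miR-363-3p higher without overlap, as were 16.3%.

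**Figure D3:**
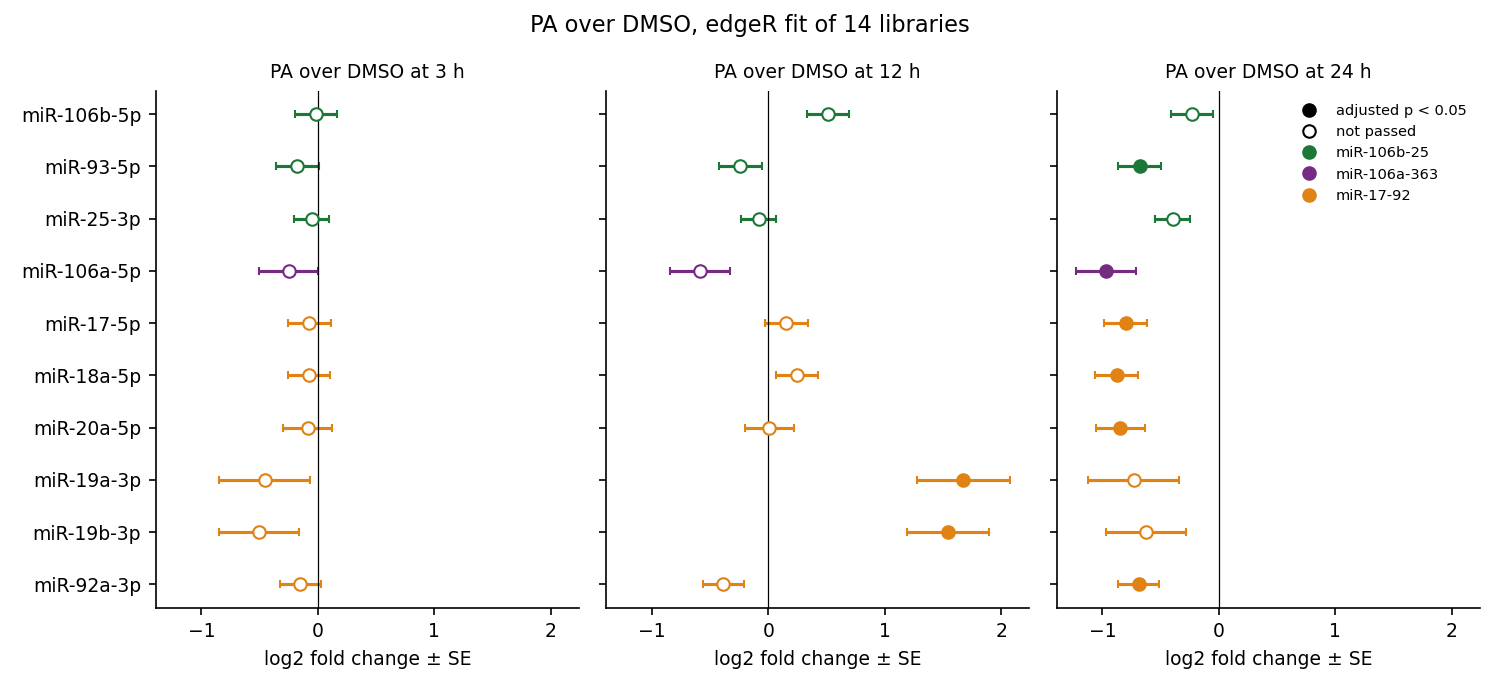
Log2 fold change of PA over DMSO with its standard error at 3, 12 and 24 h, from 1 edgeR fit of 14 libraries, for 4 members and the 6 guide strands of miR-17-92; filled points passed at an adjusted p under 0.05. miR-93-5p (-0.68) and miR-106a-5p (-0.97) are filled at 24 h only, and miR-106b-5p is at 0.51 at 12 h, unfilled. A call at 24 h and none earlier was tested as a difference between times, and it did not pass for any member.

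A call at 24 h with none at 3 or 12 h does not show that the times differ, so that difference was tested itself. In 1 F test of whether the PA effect differed between 3, 12 and 24 h, 0 of 5 tested members passed by edgeR or DESeq2 (1 had an unadjusted p under 0.05 in edgeR), where 5.93% of tested entries did. The adjusted p (edgeR) was 0.183 for miR-106b-5p, 0.380 for miR-93-5p, 0.414 for miR-106a-5p, 0.447 for miR-363-3p and 0.475 for miR-25-3p. Within PA alone, 0 entries passed for PA 12 h over PA 3 h by edgeR (82 at an unadjusted p under 0.05) and 4 by DESeq2, none of these a member. For PA 24 h over PA 3 h 3.95% of tested entries passed by edgeR, and no member passed by edgeR or DESeq2, with 1 at an unadjusted p under 0.05 (miR-363-3p). miR-93-5p at PA 24 h over PA 3 h was -0.24 ± 0.18 and miR-106a-5p -0.47 ± 0.26 on the log2 scale (SE, adjusted p = 0.544 and 0.363, edgeR).

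The levels in the vehicle alone also differed between times. In DMSO, miR-93-5p held 3741 and 2586 CPM (0 h), 3845 and 4179 CPM (3 h), 3962 and 3992 CPM (12 h), then 4512 and 5084 CPM (24 h). The DMSO 24 h libraries were the 2 highest of all 14. Ordered by mean, PA 24 h was lowest (2992 ± 451 CPM), followed by DMSO 0 h (3164 ± 817), PA 12 h (3367 ± 370), PA 3 h (3545 ± 338), DMSO 12 h (3977 ± 21.1), DMSO 3 h (4012 ± 237) and DMSO 24 h (4798 ± 405, SD, n = 2 each). Neighbours in this order overlapped, except PA 3 h with DMSO 12 h and DMSO 3 h with DMSO 24 h. DMSO 24 h over 0 h gave miR-93-5p a log2 fold change of 0.60 ± 0.19 (SE, adjusted p = 0.0858, edgeR). It did not pass and neither did any other member, by edgeR or DESeq2, where 3.58% of tested entries passed by edgeR and miR-93-5p alone of the members had an unadjusted p under 0.05.

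miR-106a-5p held 49.6 and 57.5 CPM in DMSO at 0 h, then 53.1 and 65.5 CPM (3 h), 76.2 and 59.1 CPM (12 h), and 73.0 and 67.2 CPM (24 h). These DMSO groups overlapped with their neighbours in time, and the value at 24 h over 0 h, 0.39 ± 0.26 on the log2 scale (SE), did not pass (adjusted p = 0.449, edgeR). Its lowest library, at 28.6 CPM, was PA 24 h B. miR-25-3p was the steadiest of the trio, its highest library being 1.46 times its lowest, against 1.97 times for miR-93-5p and 2.45 times for miR-106b-5p.

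The single member that passed in the vehicle was miR-106b-5p, which fell in DMSO at 12 h. It had 1098 and 732 CPM in DMSO at 12 h, against 1797 and 1582 CPM in DMSO at 0 h. Its log2 fold change was -0.88 ± 0.18 (SE, 95% interval -1.27 to -0.49, adjusted p = 0.00537, edgeR), where 12.7% of tested entries passed and 6.3% passed with a fall. The other 12 libraries held it at 1176 to 1797 CPM. In the same comparison miR-93-5p gave 0.33 ± 0.19, miR-25-3p 0.00 ± 0.15 and miR-106a-5p 0.35 ± 0.26 on the log2 scale, none of which passed, and neither did miR-363-3p. Fitted on these 4 libraries alone, 0 members passed, with 7 of 605 entries called. DMSO 3 h over 0 h called 0% of entries by edgeR and 0 by DESeq2, with 70 at an unadjusted p under 0.05 in edgeR, none of them a member. Other lists also differed between DMSO 12 h and 0 h. Red blood cell miRNAs summed to 539.8 to 591 CPM at 12 h, against 325 to 393 CPM at 0 h. At DMSO 12 h 3 of those 4 miRNAs had no reads, and the PA 24 h sums, at 503 to 554 CPM, overlapped with DMSO 12 h. Fibroblast and endothelial miRNAs summed to 394 to 439.7 CPM at DMSO 12 h, against 651 to 799 CPM at 0 h. The part of these lists in the result was not tested.

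The MIR106B hairpin is shown because the proportion of its 2 arms was different in those libraries. It is the RefSeq hairpin on the minus strand (chr7:100093993-100094074, GRCh38.p14), with miR-106b-5p and then miR-106b-3p in capitals.
MIR106B: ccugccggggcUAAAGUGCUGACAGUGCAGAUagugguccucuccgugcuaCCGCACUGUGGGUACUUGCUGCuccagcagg
Reads of miR-106b-3p were 47.6 and 63.2% of those of miR-106b-5p in the DMSO 12 h libraries, and 23.6 to 31.5% in the other 12. PA at 12 h was within that second range, at 28.1 and 30.8%. miR-106b-3p itself had 523 and 463 CPM in DMSO at 12 h, against 424 and 408 CPM in DMSO at 0 h, a log2 fold change of 0.25 ± 0.15 (SE, adjusted p = 0.318, edgeR). The difference between the arms was not tested as such. A second ratio, between neighbouring hairpins of the MCM7 intron, was also highest in a DMSO 12 h library: miR-93-5p had 3.61 and 5.45 reads per miR-106b-5p read in DMSO at 12 h and 1.63 to 3.70 in the other 12. At 24 h this ratio was 2.63 and 2.27 in PA, against 3.05 and 3.70 in DMSO, with no overlap. Of single tested entries, 26.5% were lower in PA at 24 h without overlap. The ratio was not tested, and it includes the fall of miR-93-5p given above.

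**Figure D4:**
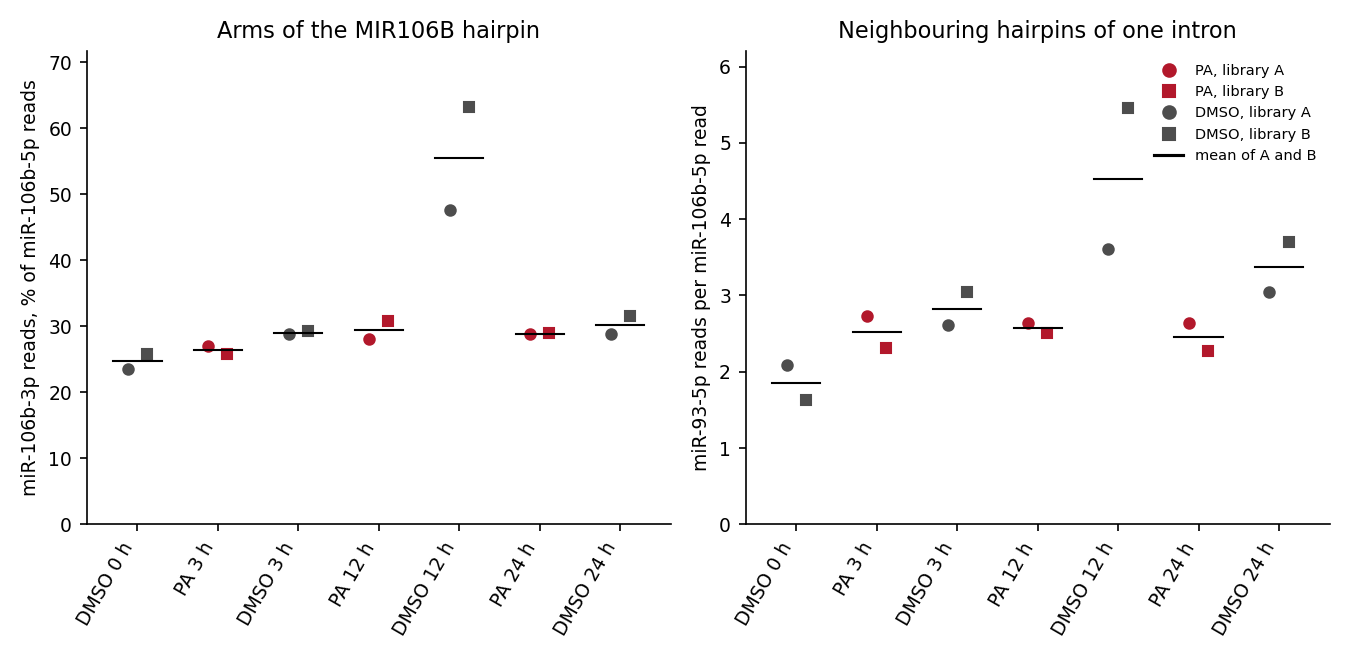
Left, reads of miR-106b-3p as a percentage of those of miR-106b-5p; right, reads of miR-93-5p per read of miR-106b-5p, by group in time order (PA red, DMSO grey, A circles, B squares, line at the mean). The DMSO 12 h libraries hold the 2 highest percentages (47.6 and 63.2), with the other 12 at 23.6 to 31.5.

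The near-identical pairs were read as shares, since a miscounted base would move reads between their members. miR-106a-5p made up 2.45 and 2.21% of the reads of miR-106a-5p and miR-17-5p together in PA at 24 h, with 95% Wilson intervals of 2.03 to 2.97 and 1.59 to 3.07, against 2.75 and 2.60% in DMSO at 24 h (2.38 to 3.18 and 2.23 to 3.04). Both PA shares were below both DMSO shares, by less than the width of these intervals, and the difference was not tested. In DMSO at 12 h the share was 4.62 and 3.28% (intervals 3.91 to 5.44 and 2.58 to 4.16), and in the other 12 libraries 1.92 to 3.13%. Reads are not independent molecules, so the intervals cover counting error only. Summed with its relative and tested as 1 entry, miR-17-5p plus miR-106a-5p fell at 24 h by 0.83 on the log2 scale (adjusted p = 0.0181, edgeR), miR-20a-5p plus miR-20b-5p by 0.86 (adjusted p = 0.0247, edgeR) and miR-18a-5p plus miR-18b-5p by 0.90 (adjusted p = 0.00828, edgeR). The X-linked strand was a small share of each sum, at most 0.114% of miR-20a-5p reads for miR-20b-5p and at most 2.22% of miR-18a-5p reads for miR-18b-5p. At 12 h the sum of miR-17-5p and miR-106a-5p stood at 0.12 on the log2 scale (adjusted p = 0.762, edgeR), where miR-106a-5p alone stood at -0.59.

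**Figure D5:**
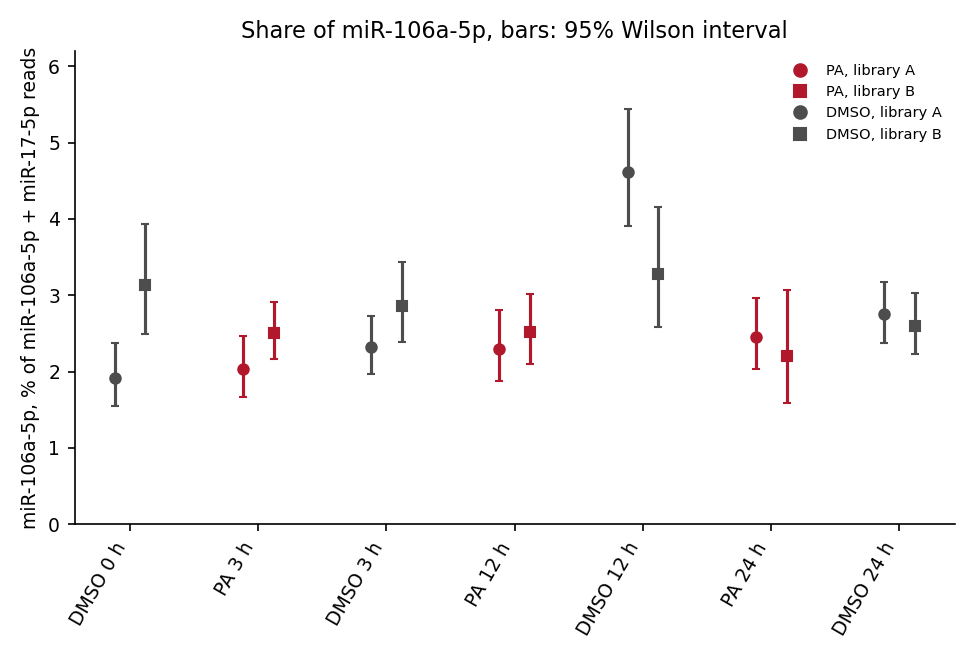
Share of miR-106a-5p among reads of miR-106a-5p and miR-17-5p in each library (percent, bars are 95% Wilson intervals), PA red and DMSO grey, A circles and B squares. At 24 h the PA points are at 2.45 and 2.21% and the DMSO points at 2.75 and 2.60%, with overlapping bars, and the highest share, 4.62%, is in DMSO 12 h A.

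The relatives outside the 7, a list chosen with earlier results of these data known, gave the following counts. Of its 17 entries 11 were tested, and at 24 h 4 fell and 0 rose, where 2.35% of all tested entries fell and 4.32% rose, and all 4 were guide strands of miR-17-92. These were miR-18a-5p (-0.88), miR-20a-5p (-0.84), miR-17-5p (-0.80) and miR-92a-3p (-0.69), with adjusted p-values in edgeR of 0.00910, 0.0229, 0.0158 and 0.0247 in that order. With the average of DMSO at 0, 3 and 12 h as the control, miR-92a-3p still passed (-0.68, adjusted p = 0.00836, edgeR), while miR-18a-5p (-0.49, 0.0640), miR-20a-5p (-0.57, 0.0572) and miR-17-5p (-0.45, 0.0949) did not. The list's median was -0.63, against -0.01 over all entries. miR-17-5p and miR-20a-5p have the seed of miR-93-5p and miR-106a-5p. miR-92a-3p has the seed of miR-25-3p, whose 2 further relatives did not pass: miR-92b-3p at 0.03 ± 0.15 and miR-32-5p at -0.44 ± 0.20 (SE). The PA comparisons of members and relatives use the same DMSO libraries. At 12 h 3 of the 11 rose, where 6.3% of tested entries did: miR-19a-3p (1.67), miR-19b-3p (1.55) and miR-32-5p (0.73). None passed with DMSO at 0, 3 and 24 h averaged as the control: miR-19a-3p stood at 0.65 (adjusted p = 0.363, edgeR), miR-19b-3p at 0.50 (0.469) and miR-32-5p on the other side of 0 at -0.22 (0.572). In the vehicle, 1 of the 11 passed for DMSO 12 h over 0 h, where 12.7% of tested entries passed and 6.3% passed with a fall. It was miR-32-5p, with the seed of miR-25-3p, which fell by 0.89 on the log2 scale (adjusted p = 0.00808, edgeR). None of the 3 tested other arms, miR-106b-3p, miR-93-3p and miR-25-5p, passed in any PA comparison. The summed level of the seed AAAGUGC was 9795 and 7368 CPM in PA at 24 h, against 13833 and 14191 CPM in DMSO at 24 h.

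The miRNAs outside the members whose levels followed each member most closely were ranked by Pearson's r of log2 CPM over the 14 libraries. The pool was 452 named entries with a mean of at least 10 CPM. Within the trio, r was 0.84 for miR-93-5p with miR-25-3p, above every entry listed below for miR-93-5p. For miR-106b-5p it was -0.06 with miR-93-5p and 0.26 with miR-25-3p. Both values depended on the DMSO 12 h libraries, with r at 0.21 and 0.52 over the other 12. All points share library depth and scaling, and the values are descriptions. For miR-106b-5p the first 3 were miR-29c-3p (0.93), miR-1307-5p (0.93) and miR-153-3p (0.89). The last rested on the DMSO 12 h libraries, with r at 0.38 over the other 12, where the first 2 were at 0.82 and 0.80. None of the first 3 was a relative by seed or cluster. For miR-93-5p they were miR-450a-1-3p (0.82), miR-3529-3p (0.78) and miR-20a-5p (0.77), and for miR-25-3p miR-20a-5p (0.88), miR-17-5p (0.87) and let-7d-5p (0.87). Both lists held guide strands of miR-17-92. For miR-106a-5p they were miR-369-3p (0.83), miR-34c-5p (0.82) and miR-191-3p (0.81). For miR-363-3p, where 2 libraries were at 0, they were miR-15b-3p, miR-339-3p and miR-1277-3p (0.71, 0.70 and 0.70), the last with a Spearman's rho of 0.35.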

How the data were processed

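The authors deposited whole-number read counts per mature miRNA entry and a TPM table of the same entries. The submitters' processing notes name Bowtie, bcl2fastq and edgeR as tools and GRCh38 as the build. Mismatch and multi-mapping settings are not given in the sources used here. Both tables matched all 14 libraries, and 502 of the 2848 entries carry no miRNA name. Counts were fitted with edgeR 4.0.16 in R 4.3.3 (TMM factors, filterByExpr at count 10 and total 15, robust quasi-likelihood F tests, 7 groups, 810 entries, Benjamini-Hochberg adjustment, threshold 0.05). Alternatives used DESeq2 1.42.0, limma 3.58.1 on log2(TPM + 1), other filters and scalings, and each library left out. The script was tested on simulated data with 200 changed entries. miR-363-3p passed the filter through 5 libraries. Text names all 7 members, relatives that passed or pair with a member, and other arms. It also names the 3 entries outside the members most correlated with each tested member. Members and lists were chosen with earlier results of these data known.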

Additional observations from a re-analysis of the deposited data

Results flagged for a closer look

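edgeR's F test asked whether the PA effect differed between 3, 12 and 24 h. Of the 11 tested relatives 4 passed, and of the 5 tested members 0, where 5.93% of tested entries did. The relatives were listed with earlier results of these data known. The member nearest to passing was miR-106b-5p (unadjusted p = 0.0301, adjusted p = 0.183, edgeR). The adjusted p was 0.0191 for miR-19b-3p, 0.0308 for miR-19a-3p, 0.0345 for miR-18a-5p and 0.0404 for miR-32-5p. miR-19b-3p had 4607 and 5137 CPM in PA at 12 h, against 1558 and 1779 CPM in DMSO at 12 h, and 4632 and 1661 CPM in PA at 24 h, against 4855 and 4861 CPM in DMSO at 24 h. For miR-106b-5p the DMSO 12 h libraries were the lowest 2 of all 14.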

How the results depend on the processing

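At 24 h 2 members passed with the settings reported, 1 with DESeq2 size factors, 3 with total counts and 3 with limma on log2(TPM + 1). With near-identical paralogs summed 4 passed (miR-93-5p and the 3 sums). The count was 0 with named entries only, with only the groups compared, or against the other DMSO times. Leaving out 1 library at a time gave 0 to 2 members at 24 h, 0 to 1 at 12 h, 0 to 1 for DMSO 24 h over 0 h and 0 to 1 for the difference between times. A group left with 1 library was assumed to vary like the others, and these fits tested more entries on fewer libraries. For DMSO 12 h over 0 h, only the groups compared gave 0 members against 1. For DMSO 24 h over 0 h, no filter gave 1 against 0, and for the difference between times the summed paralogs gave 1 against 0. That 1 was the sum of miR-18a-5p and miR-18b-5p (adjusted p = 0.0380, edgeR). The relative miR-18a-5p passed that test alone (adjusted p = 0.0345, edgeR), and miR-18b-5p was not tested alone with the settings reported. Without the 12 h libraries both calls at 24 h held.

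Over all entries at 24 h, 54 were called, 12 without DMSO 24 h A, 13 without DMSO 24 h B, 31 without PA 24 h B and 81 without the 12 h libraries.

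Some values changed sign, at 3 h from near 0 and at 12 h mostly from larger ones. For miR-106b-5p at 3 h (-0.02) they were 0.0079 with total counts, 0.051 with no filter, 0.0065 with a minimum count of 50, 0.038 with named entries only, 0.015 with paralogs summed, 0.0086 with limma, 0.11 against the other DMSO times and -0.054 to 0.038 with 1 library left out. miR-25-3p with no filter was at 0.012 at 3 h and 0.026 at 12 h (-0.05 and -0.08). At 12 h miR-106b-5p (0.51) was at -0.21 against the other DMSO times. The fitted value of miR-363-3p (-0.87) ran from -2.03 to 5.22 at 12 h with 1 library left out, at read counts of 0 to 10. The cause of these changes was not tested. The sum of miR-17-5p and miR-106a-5p stood at 0.12 at 12 h, where miR-17-5p alone was at 0.15 and miR-106a-5p alone at -0.59. As miR-106a-5p made up at most 4.62% of the summed reads, the value of the sum is not one of miR-106a-5p.

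Libraries with the same letter did not deviate together: over 21 pairs of groups the correlations of deviations ran from -0.17 to 0.11. With the letter as a replicate block, 2 members passed at 24 h, miR-93-5p at -0.69 (adjusted p = 0.0332, edgeR) and miR-106a-5p at -0.97 (adjusted p = 0.0489, edgeR), with 50 entries called in all.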
